A study of Mus musculus with 5 samples.

Results

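The replication-dependent histone genes are the clustered genes that supply most of the histone protein of newly made chromatin. They were taken from the gene list of the deposited matrices as every symbol that begins with Hist1h, Hist2h, Hist3h or Hist4h, with pseudogenes left out, which gave 67 of 31053 genes: 6 for the linker histone H1, 18 for H2A, 18 for H2B, 12 for H3 and 13 for H4. On the mm10 genome with the GENCODE M21 annotation, 54 lie on chromosome 13, 10 on chromosome 3, 2 on chromosome 11 and 1 on chromosome 6, and 62 have a single exon. The cells were CD4 T cells sorted from digested kidneys of 10-week-old mice after unilateral ischemia-reperfusion injury, in which the blood supply of a kidney is stopped and then restored. All 5 libraries carry the floxed allele of Il1rl1, the gene of the IL-33 receptor ST2: 2 control libraries have the genotype Il1rl1fl/fl and 3 libraries labelled knockout have Il1rl1fl/fl Foxp3YFP-Cre, in which Cre is made under Foxp3, the gene that defines regulatory T (Treg) cells. The Foxp3YFP-Cre allele was present only in the libraries labelled knockout, so that allele and the loss of Il1rl1 cannot be told apart. The labels do not say whether each library came from a separate animal, so p-values measure the spread between libraries only.

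A nucleosome wraps DNA around a core of H2A, H2B, H3 and H4, and H1 binds the DNA where it enters and leaves. Messages of the replication-dependent genes are made mainly while DNA is copied, and most of them end in a conserved stem-loop instead of a poly(A) tail. The stem-loop is bound by SLBP, the stem-loop-binding protein, which guides the cut at the end of the message and its translation, and some of these genes are known to give polyadenylated messages as well. The libraries were made with a 3′ single-cell chemistry, in which complementary DNA is primed on poly(A). The values below therefore count the histone molecules captured that way, and what share of all histone messages they form was not measured.

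The stem-loop of the messages with the most counts, or with the largest and smallest differences described below, is shown with its flanks as written in the annotated transcripts, with the 16 bases that match the consensus of the histone stem-loop in capitals. The consensus leaves 5 of its 16 positions free and was searched on the transcript strand only.
Hist1h1e: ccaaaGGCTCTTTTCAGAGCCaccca
Hist1h1c: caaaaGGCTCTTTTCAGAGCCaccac
Hist1h4d: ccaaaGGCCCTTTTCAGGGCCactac
Hist1h3c: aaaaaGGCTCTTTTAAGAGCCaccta
Hist2h2ac: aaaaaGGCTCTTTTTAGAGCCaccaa
Hist1h2ae: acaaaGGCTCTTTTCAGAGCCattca
Hist1h2ab: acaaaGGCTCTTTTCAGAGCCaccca
Hist3h2a: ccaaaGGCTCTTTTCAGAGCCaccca
The capitals lie on mm10 at chr13:23621782-23621797 on the minus strand for Hist1h1e, chr13:23739512-23739527 on the plus strand for Hist1h1c, chr13:23581950-23581965 on the plus strand for Hist1h4d and chr13:23745047-23745062 on the minus strand for Hist1h3c. They lie at chr3:96220418-96220433 on the minus strand for Hist2h2ac, chr13:23570668-23570683 on the minus strand for Hist1h2ae, chr13:23751572-23751587 on the plus strand for Hist1h2ab and chr11:58955172-58955187 on the plus strand for Hist3h2a. The annotated transcript runs on for 1153 bases past the motif in Hist1h1e, 840 in Hist1h1c, 770 in Hist1h4d and 1643 in Hist3h2a, but only for 151 in Hist1h2ae, 74 in Hist1h3c, 57 in Hist2h2ac and 11 in Hist1h2ab. In all, 44 of the 67 members (65.7%) held the motif in an annotated transcript, against 35 of 30867 other genes (0.113%). In 22 members more than 100 bases follow the motif, in 22 at most 100 bases follow, and in 23 the motif is not in the annotated transcript. The absence of these letters says nothing of the message that the cells make.

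Promoters of 61 members were found in the RefSeq table of GRCm38.p6, which gives 250 bases before to 50 bases after the start, 300 in all. The 150 bases before the start of the linker genes Hist1h1b, Hist1h1c and Hist1h1e, of the H4 gene Hist1h4d, and of the divergent pair Hist1h2ae (H2A) and Hist1h2bg (H2B) are shown because these genes had high counts or lie side by side with different counts. Shares with a motif below are over the whole 300 bases, in members and in the table alike. They are shares of genes, and a gene counts when any of its promoters holds the motif. Capitals mark, on either strand, the octamer ATTTGCAT, the TATA box as TATAAA, the CCAAT box as CCAAT and the H1 box as AAACACA.
Hist1h1b: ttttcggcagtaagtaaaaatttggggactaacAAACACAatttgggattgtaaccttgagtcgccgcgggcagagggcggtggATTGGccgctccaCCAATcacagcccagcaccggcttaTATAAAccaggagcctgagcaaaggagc
Hist1h1c: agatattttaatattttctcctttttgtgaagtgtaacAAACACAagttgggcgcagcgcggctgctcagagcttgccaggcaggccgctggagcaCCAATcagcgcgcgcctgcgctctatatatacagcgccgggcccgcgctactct
Hist1h1e: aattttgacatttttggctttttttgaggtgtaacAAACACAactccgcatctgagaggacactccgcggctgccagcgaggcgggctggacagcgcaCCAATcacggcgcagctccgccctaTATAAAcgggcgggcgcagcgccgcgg
Hist1h4d: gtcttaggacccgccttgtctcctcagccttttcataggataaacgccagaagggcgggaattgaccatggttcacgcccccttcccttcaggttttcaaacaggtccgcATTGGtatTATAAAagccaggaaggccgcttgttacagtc
Hist1h2ae: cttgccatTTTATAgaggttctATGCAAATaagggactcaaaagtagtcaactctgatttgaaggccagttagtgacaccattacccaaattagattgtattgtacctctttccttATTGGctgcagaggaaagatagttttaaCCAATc
Hist1h2bg: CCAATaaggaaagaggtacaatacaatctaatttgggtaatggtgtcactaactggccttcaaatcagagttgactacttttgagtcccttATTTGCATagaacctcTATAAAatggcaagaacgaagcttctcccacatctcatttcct
These windows are chr13:21780626-21780775 (minus strand) for Hist1h1b, chr13:23738657-23738806 (plus) for Hist1h1c, chr13:23622559-23622708 (minus) for Hist1h1e, chr13:23581418-23581567 (plus) for Hist1h4d, chr13:23571221-23571370 (minus) for Hist1h2ae and chr13:23571250-23571399 (plus) for Hist1h2bg. The last pair read the same stretch in opposite directions, since their starts are 176 bases apart. The octamer, the binding sequence of OCT1, was found for 7 of 17 H2A and 7 of 16 H2B genes. It was found for none of the 6 H1, 10 H3 and 12 H4 genes, against 532 of 27025 genes (1.97%) in the whole table. The octamer of Hist1h2ae and that of Hist1h2bg are the same letters, counted for both genes. The H1 box was found for 5 of 6 H1 genes, against 8.22% of all genes in the table. In the same 300 bases CCAAT was found for all 6 H1, 17 H2A, 16 H2B and 10 H3 genes searched but for 3 of 12 H4 genes. In the whole table CCAAT was found for 41.1% of all genes. TATAAA was found for 35 of the 61 members, against 15.7% of all genes. A match of letters is a description of the sequence and was not tested for binding.

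Cells were kept when they had at least 500 genes and under 10% mitochondrial unique molecular identifiers (UMIs, 1 for each captured molecule), which left 38417 of 40778 barcodes, 4241 to 10320 in a library. Control 1 was sequenced far more deeply than the others, with 152275841 UMIs and a median of 13534 per kept cell, against 31104939 to 60421178 UMIs and medians of 3786 to 7546. Between 2 and 39 barcodes were shared by any 2 libraries, 0.0437% to 0.384% of the smaller. Doublets were not called, and the 5% of cells with the most UMIs were left out as an alternative. Cells were gated by a Mki67 UMI, since Mki67 marks dividing cells, and by a Foxp3 UMI, or by a Cd4 UMI without a Foxp3 UMI. The last gate can hold Treg cells whose Foxp3 was not captured, and the gate with a Mki67 UMI held 1009 to 2595 cells a library without Foxp3 and 147 to 378 with it. Il1rl1, the targeted gene, overlapped between the groups: in Foxp3 cells without a Mki67 UMI it stood at 77.0 and 57.0 CPM (UMIs of a gene for each 1000000 UMIs of the gate) in the controls and at 167, 68.1 and 64.9 in the libraries labelled knockout, and with a Mki67 UMI at 72.7 and 53.0 against 109, 46.0 and 43.9. The labels do not give the deleted exons, and a 3′ tag outside them checks nothing, so the groups are called by their labels. Control 1 also stood apart within the histone genes, as described near the end, and counts are therefore given with and without it.

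The 4 gates held 721494 histone UMIs, of which control 1 gave 49.4%. Of the 67 members 65 had a UMI. Hist1h2aa and Hist1h2ba, a divergent H2A and H2B pair known from the testis, had none, and the testis linker gene Hist1h1t had 5. Linker genes led: Hist1h1e held 17.4% of the histone UMIs, Hist1h1b 13.1%, Hist1h1c 12.4% and Hist1h1d 5.85%. The H4 gene Hist1h4d held 10.4%, and the 12 members with the most UMIs together held 79.2%; the rest of these 12 were Hist1h3c and Hist1h3e (H3), Hist2h2ac, Hist1h2ae, Hist1h2ap and Hist1h2ab (H2A) and Hist2h2bb (H2B). Per kilobase of annotated transcript, Hist1h1b came first with 126828 UMIs, followed by Hist1h4d with 65874, Hist1h1e with 65033 and Hist1h1c with 57310, while Hist1h1d was the 25th of the members with 5686. This scale rests on the annotated lengths, which are 743 bases for Hist1h1b, whose annotated transcript holds no stem-loop, and 1930 bases for Hist1h1e. With the 5 libraries weighted equally, 10 of these 12 members stayed among the first 12, and Hist1h2ap was the 19th.

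Dividing cells held far more histone RNA than other CD4 T cells. In Foxp3-negative Cd4 cells with a Mki67 UMI the 67 genes summed to 4352 and 4817 CPM in control 1 and 2 and to 2325, 4785 and 6966 CPM in knockout 1, 2 and 3. Without a Mki67 UMI the same libraries held 713, 587, 396, 582 and 836 CPM. Every library was higher with Mki67, and the ranges did not overlap, with ratios of 6.10, 8.21, 5.88, 8.23 and 8.33. In summed counts, fewer cells that make histone RNA and less RNA per cell cannot be told apart.

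**Figure D1:**
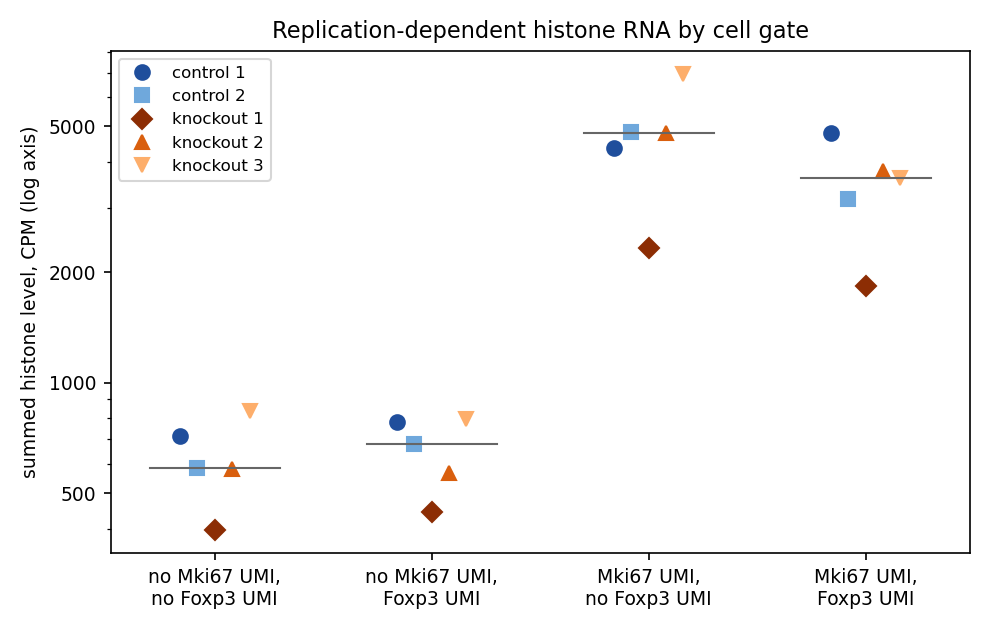
Summed level of the 67 histone genes in CPM of the gate (log axis) in 4 cell gates, with 1 symbol for each of the 5 libraries and a line at their median. The 2 gates with a Mki67 UMI lie between 1839 and 6966, above the 396 to 836 of the 2 gates without one.

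The edgeR quasi-likelihood test with the library as a term could test 58 of the 67 members in Foxp3-negative Cd4 cells, and 56 rose with a Mki67 UMI while none fell. The background was high: of all 12738 genes tested 47.7% passed and 24.3% were higher, and the median log2 fold change was 3.33 for the histone genes and -0.01 for all genes. Of the 9 members that were not tested, 2 had no UMI and the highest had 140 over all libraries. All classes took part: 5 of 5 tested H1 genes rose (median log2 fold change 3.01), 14 of 15 H2A (4.99), 15 of 16 H2B (4.04), 9 of 9 H3 (3.80) and 13 of 13 H4 (2.38). A gene can pass the filter on low counts through the gate in which it is high, so these counts describe the tested members only. Of the 58, 46 also passed the filter in cells without Mki67 alone, and 44 of those 46 rose, with a median of 3.12. Without control 1, 55 of 57 rose.

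Hist1h1b, the H1.5 linker gene, was at 501 and 896 CPM in the controls and 387, 713 and 1418 CPM in the libraries labelled knockout in cells with a Mki67 UMI, and at 13.7, 16.0, 10.8, 12.5 and 27.8 CPM without. Its gates did not overlap, with a log2 fold change of 5.49 ± 0.10 (SE, adjusted p = 4.71e-12). Hist1h1e, the H1.4 linker gene, stood at 616, 926, 447, 749 and 1280 CPM with Mki67 and at 180, 157, 111, 129 and 264 CPM without. Its gates did not overlap either, but its log2 fold change was smaller, at 2.19 ± 0.10 (adjusted p = 1.4e-08). Hist1h1c, the H1.2 linker gene, had the smallest difference of the tested linker genes: 403, 548, 348, 548 and 752 CPM against 158, 148, 109, 150 and 225 CPM, a log2 fold change of 1.66 (adjusted p = 4.82e-09). The H1.3 gene Hist1h1d rose by 3.01 on the log2 scale (adjusted p = 2.61e-09).

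Among core histone genes, Hist1h3c had the largest difference. It was at 199, 259, 115, 248 and 432 CPM with Mki67 and at 0.949, 2.50, 0.512, 1.19 and 1.57 CPM without, a log2 fold change of 7.46 ± 0.11 (adjusted p = 1.21e-12). The H2A gene Hist1h2af was at 12.4 to 38.9 CPM with Mki67 and at 0 to 0.197 CPM without, and it could be tested only through the first of these gates. The other members with the smallest p-values were the H2A genes Hist1h2ab (log2 fold change 6.14), Hist1h2ae (5.46) and Hist1h2ak (4.99) and the H2B genes Hist1h2bn (5.89), Hist1h2bm (5.96) and Hist1h2bj (5.06). Members with many UMIs but smaller differences were Hist1h3e (3.24), Hist2h2bb (3.12), Hist2h2ac (2.72) and Hist1h4d (2.08). For Hist1h4d that was 416 to 576 CPM in 4 libraries and 193 CPM in knockout 1 with Mki67, against 50.5 to 125 CPM without.

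The 2 tested members that did not pass were Hist3h2a and Hist2h2be. Hist3h2a, an H2A gene that overlaps Trim17 on the same strand, was at 5.62, 5.89, 4.37, 3.94 and 4.84 CPM with Mki67 and at 6.5, 8.26, 5.69, 3.28 and 5.71 CPM without, a log2 fold change of -0.26 (adjusted p = 0.0946). Its gates overlapped. Hist2h2be, an H2B gene known to give polyadenylated messages in resting cells, was at 1.39 to 2.18 CPM with Mki67 and 0.942 to 1.65 CPM without (log2 fold change 0.27, adjusted p = 0.25). Hist1h2bc, another such H2B gene, rose by 0.92 (adjusted p = 0.000938), from 4.14 to 11.1 CPM to 8.81 to 18.5 CPM.

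**Figure D2:**
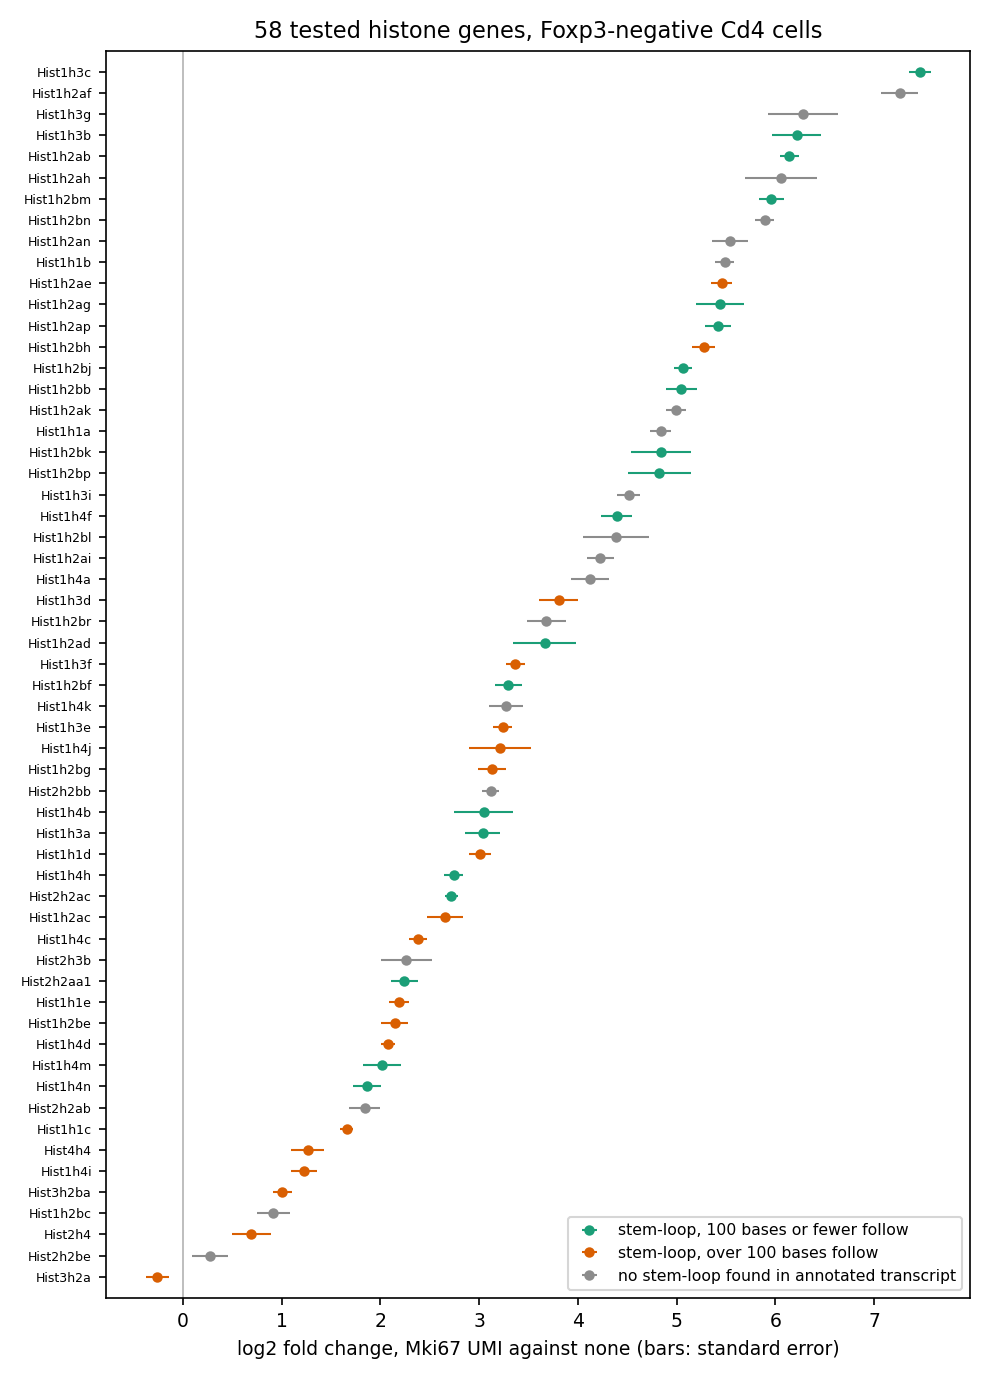
Log2 fold change with its standard error for the 58 tested histone genes, cells with a Mki67 UMI against cells without, in Foxp3-negative Cd4 cells, coloured by the annotated 3′ end. Hist1h3c leads at 7.46, and Hist2h2be (0.27) and Hist3h2a (-0.26) lie next to 0.

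The size of the difference went along with the annotated end of the message. Of the 22 members with at most 100 bases after the motif, 20 were tested, 20 rose and their median log2 fold change was 4.61. Of the 22 with more than 100 bases after it, 19 were tested, 18 rose and the median was 2.38. Of the 23 without the motif, 19 were tested, 18 rose and the median was 4.39. Among members that also passed the filter in cells without Mki67 alone, the medians were 3.17 (14 members), 2.28 (18) and 4.18 (14) in the same order. The difference between these groups of genes was not tested.

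Of the divergent H2A and H2B pairs, which share the stretch between their starts, some had unequal counts or unequal differences and others were closer. Hist2h2ac and Hist2h2be start 239 bases apart and had 27519 and 457 UMIs, with log2 fold changes of 2.72 and 0.27. Hist1h2ae and Hist1h2bg, whose shared promoter is shown above, had 21679 and 3103 UMIs and log2 fold changes of 5.46 and 3.13. The pair Hist1h2ak and Hist1h2bn, 296 bases apart, had 7905 and 6780 UMIs and log2 fold changes of 4.99 and 5.89. Hist1h2ag and Hist1h2bj, 270 bases apart, had 1027 and 6701 UMIs and log2 fold changes of 5.44 and 5.06. Of the 50-base stretches, 86.4% in Hist1h2bn, 78.9% in Hist1h2ag, 59.4% in Hist1h2bj and 52.3% in Hist1h2ak are shared with other members. The share is 49.7% in Hist1h2bg, 43.2% in Hist1h2ae, 37.4% in Hist2h2ac and 0% in Hist2h2be. The counts of all of these but Hist2h2be are therefore uncertain. The differences within pairs were not tested.

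The histone RNA of the dividing gate sat in a minority of cells. The tenth of Foxp3-negative cells with a Mki67 UMI that had the most histone UMIs held 83.5% and 71.7% of them in the controls and 81.0%, 77.1% and 50.9% in the libraries labelled knockout, against 32.0% to 37.2% in cells without Mki67. With every cell thinned to 2000 UMIs before gating, 17.7%, 20.6%, 13.8%, 17.3% and 30.0% of the cells with a Mki67 UMI had at least 10 histone UMIs, against 0.225%, 0.492%, 0.312%, 0.229% and 1.19% of those without. The gates did not overlap in that share, although the median cell with Mki67 had only 1 to 3 histone UMIs. Without thinning the shares were 29.1% to 68.4% against 3.97% to 40.1%, with control 1, the deepest library, highest in both. Cells with a Mki67 UMI were also deeper, with medians of 6568 to 17981 UMIs against 3966 to 12922. With cells thinned before gating, 33 members could be tested and 32 passed, fewer than the 56 with all UMIs.

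Genes that serve histone messages and histone proteins were tested beside the members, from lists of 18 genes of message processing and decay, 21 chaperones and supply genes, and 11 replication-independent variants. Of the 18 processing genes, 12 rose and 3 fell with Mki67, with a median log2 fold change of 0.19. Slbp was at 118, 138, 110, 112 and 170 CPM with Mki67 and 52.1, 53.9, 54.8, 58.1 and 63.2 CPM without (log2 fold change 1.13, adjusted p = 9.12e-08), and its gates did not overlap. Smaller rises were found for the 3′ exonuclease gene Eri1 (0.57), for Casp8ap2, which encodes FLASH of the processing complex (0.38), and for the cap-complex gene Srrt (0.25). The uridylyltransferase genes Zcchc11 (-0.30) and Zcchc6 (-0.13) and the endonuclease gene Cpsf3 (-0.11) fell.

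Of the 21 chaperone and supply genes 16 rose and 1 fell. The H3-H4 chaperone gene Asf1b rose by 3.33 on the log2 scale (adjusted p = 6.51e-10), Chaf1a and Chaf1b, which encode subunits of the replication-coupled assembly factor CAF-1, by 2.56 and 1.14, the H2A.Z chaperone gene Anp32e by 0.98 and Nasp by 0.87. Daxx, which serves H3.3, fell by 0.27. All 9 tested variant genes rose, led by the centromeric H3 gene Cenpa (2.49), H2afx (2.20), H2afz (1.32) and H2afv (1.25), while the H3.3 gene H3f3b rose by 0.24. The 32 genes of the S-phase list and the 26 of the mitosis list all rose, with medians of 1.84 and 4.42.

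Macrophage markers moved with the same gate. All 8 macrophage markers rose, with a median log2 fold change of 0.69, and their summed level was 468 to 1308 CPM with Mki67 and 399 to 751 without. They include the complement genes C1qb (0.87), C1qc (0.84) and C1qa (0.82) and the macrophage surface gene Adgre1 (0.71), and none was at 0. The 5 B-cell markers summed to 174 to 759 CPM with Mki67 and 141 to 284 without, and were higher with Mki67 in 3 libraries and lower in control 2 and knockout 3 (ratios of 0.812 and 0.88). Of the 5 proximal tubule markers 2 were tested and none passed, and none of the 4 erythroid markers was tested. The mean log2 ratio of the summed histone level was 2.86 with all cells and 3.37 with only those T cells that had no marker of another type. Such cells, here and below, had a Cd3d, Cd3e or Cd3g UMI. They had no UMI of the macrophage, dendritic-cell, B-cell, proximal tubule and erythroid lists. Markers of natural killer cells were not used to leave cells out.

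In Treg cells histone RNA was also higher with Mki67. In cells with a Foxp3 UMI, 4812, 3172, 1839, 3768 and 3618 CPM of histone RNA were found with a Mki67 UMI, and 779, 680, 445, 568 and 797 CPM without, with no overlap and ratios of 6.17, 4.67, 4.13, 6.63 and 4.54. Only 34 members passed the filter on low counts, and 33 of them rose (median log2 fold change 3.02), where 28.8% of all genes passed and 15.8% were higher. Of these 34 only 15 also passed the filter in cells without Mki67 alone, and the other 19 could be tested only through the gate with Mki67. Of the 15, 14 rose, with a median of 1.86. Without control 1, 31 of 32 rose. The count moved with the setting: all 3 tested members rose with only T cells that had no marker of another type, all 6 with thinned cells, 20 of 21 without the deepest cells and 52 of 65 with no filter. The largest were Hist1h2ab (6.84) and Hist1h3c (6.83), and the smallest p-values included Hist1h2ae (5.26), Hist1h1b (5.1), Hist1h3e (3.27), Hist1h1a (4.87), Hist2h2bb (2.95), Hist1h2ap (5.26) and Hist1h3i (4.59). Of these, Hist1h2ab, Hist1h3c and Hist1h2ap were among the 19 that could be tested only through the gate with Mki67. Hist1h1e rose by 1.57, and Hist3h2a again did not pass (-0.46, adjusted p = 0.189).

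In Treg cells Slbp rose by 0.75 (adjusted p = 3.06e-05), and 4 of 17 tested processing genes rose and 2 fell. The Mki67 effect in Foxp3 cells minus that in Foxp3-negative cells passed for none of 58 members, where 0.167% of all genes passed. At an unadjusted p under 0.05 there were 5 members, or 8.62% of the 58, against 9.11% of all genes. DESeq2 called 2 of the 14 members it gave an adjusted p, against 2.38% of all genes.

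Histone RNA was higher in cells with more UMIs of mitosis genes than of S-phase genes than in cells with the reverse. Among all cells with a Mki67 UMI, those with more UMIs of the mitosis list than of the S list (mitosis-leading, 265 to 687 cells a library) held 12722, 10904, 6181, 10692 and 11714 CPM of histone RNA. Those with more UMIs of the S list (S-leading, 715 to 2046 cells) held 1686, 2296, 886, 2029 and 3367 CPM. The phases did not overlap, and the ratios were 7.54, 4.75, 6.98, 5.27 and 3.48. Histone genes are in neither list. The summed mitosis list was 5.91 to 14.5 times as high in mitosis-leading as in S-leading cells, the summed S list 0.741 to 1.26 times. S-leading cells were therefore low in mitosis-list RNA, but they did not hold more S-list RNA in control 1, knockout 1 or knockout 2. Of 59 tested members 57 were higher in mitosis-leading cells (median log2 fold change 2.69), where 26.2% of all genes passed and 13.9% were higher. Without control 1 it was 56 of 58, and with cells thinned it was 24 of 25 tested. Of the 59 members, 58 also passed the filter in S-leading cells alone, and 56 of those 58 were higher.

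The smallest p-values in this comparison were those of the linker genes Hist1h1e (log2 fold change 2.16) and Hist1h1c (2.16), the H3 genes Hist1h3f (3.19) and Hist1h3e (2.93), the H4 genes Hist1h4c (2.40) and Hist1h4d (2.30) and the H2B genes Hist3h2ba (1.86) and Hist1h2be (2.49). For Hist1h1e the levels were 1553, 2033, 1090, 1599 and 2105 CPM in mitosis-leading and 318, 459, 212, 357 and 654 CPM in S-leading cells, without overlap. Hist1h1b was at 1561, 2041, 1075, 1597 and 2323 CPM against 185, 434, 149, 338 and 724 CPM, also without overlap, a log2 fold change of 2.45. Hist3h2a (0.06, adjusted p = 0.895) and Hist2h2be (0.62, adjusted p = 0.058) did not pass. Of the variants, H2afx (2.71), Cenpa (3.29), H2afv (1.57) and H2afz (0.95) were higher in mitosis-leading cells as well. The Cenpa chaperone gene Hjurp rose by 1.49, Anp32e by 1.28, Asf1b by 1.41 and the processing genes Zfp473 by 2.16 and Eri1 by 0.48, while Chaf1b fell by 0.58.

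Cells with at least 10 UMIs of the 2 lists were also set in 5 bins by the share of the mitosis list. The summed histone level rose from 524 to 1145 CPM over the libraries in the first bin (0 to 20%) to 929 to 4516 CPM in the second, 3917 to 11442 CPM in the third, 8191 to 16720 CPM in the fourth and 6266 to 12903 CPM in the last. It was highest in the fourth bin (60 to 80%) in 4 libraries and in the last in knockout 3, at 12277 against 12080 CPM. Slbp took another course: the fourth bin held 188, 181, 166, 144 and 196 CPM and the last bin 86.1, 71.8, 75.1, 67.9 and 88.3 CPM, the lowest of the 5 bins in every library. Within the members, Hist1h1a fell from a mean of 227 CPM in the fourth bin to 106 CPM in the last and Hist1h3a from 38.7 to 19.6 CPM, while Hist1h1c was at 1255 and 1189 CPM. Bins are a description and were not tested.

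**Figure D3:**
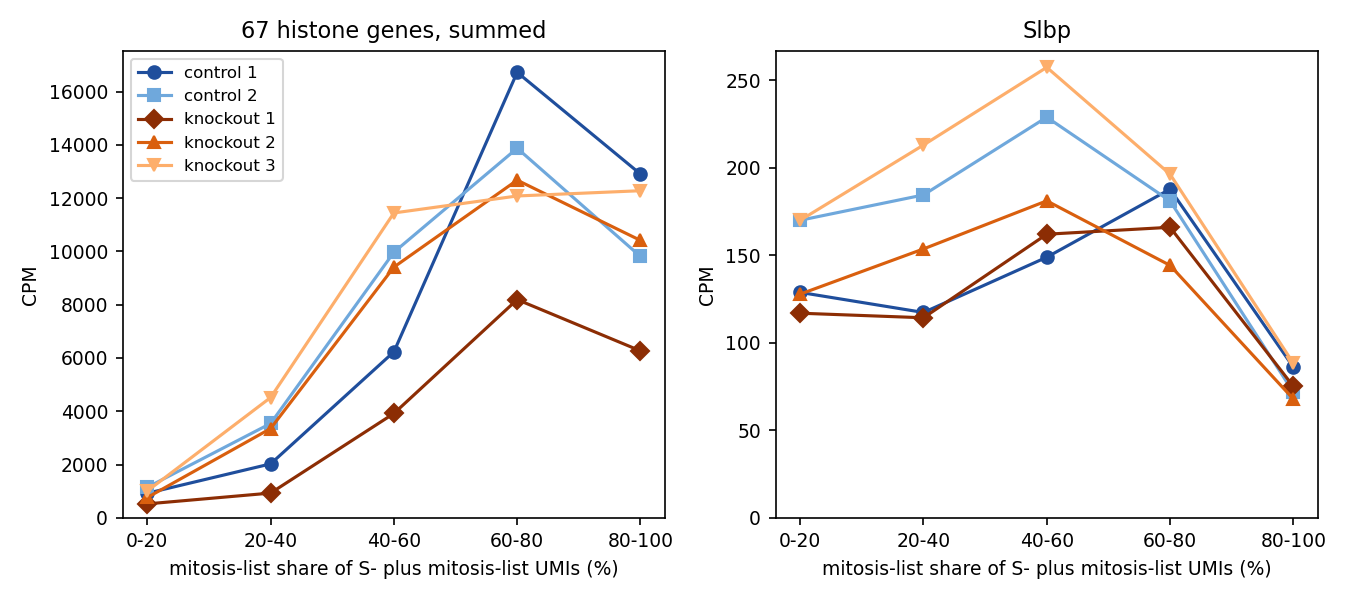
Summed level of the 67 histone genes in CPM (left) and of Slbp in CPM (right) by the mitosis-list share of S-list plus mitosis-list UMIs, in percent, 1 line for each library. Histone RNA is highest in the 60 to 80% bin in 4 libraries, and Slbp is lowest in the last bin in all 5, at 67.9 to 88.3.

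Between S-leading and mitosis-leading cells Slbp differed by 0.18 on the log2 scale (adjusted p = 0.062), which did not pass. With thinned cells it was lower in mitosis-leading cells, at -0.52 (edgeR, adjusted p = 0.00323).

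In 4 of 5 libraries dividing Treg cells held less histone RNA than other dividing CD4 T cells. Among cells with a Mki67 UMI, the summed level in Foxp3 cells divided by that in Foxp3-negative cells was 1.11 in control 1, 0.659 in control 2 and 0.791, 0.788 and 0.519 in the libraries labelled knockout, so it was lower in 4 of 5 and higher in control 1. Of 58 tested members 15 fell and none rose, with a median log2 fold change of -0.37, where 18.5% of all genes passed, 9.96% as higher and 8.59% as lower. The count rested on single libraries: it was 34 without control 1 and 8 without knockout 2, and 0 with thinned cells. Of the 58 members, 49 also passed the filter in Foxp3 cells with Mki67 alone. Among those 49, 14 fell, with a median of -0.39. The other 9 could be tested only through the Foxp3-negative gate.

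Hist1h1d was at 230, 188, 107, 201 and 207 CPM in Foxp3 cells and 229, 308, 169, 316 and 490 CPM in the others, and was lower in 4 libraries and level in control 1, a log2 fold change of -0.66 ± 0.13 (adjusted p = 0.00547). Hist1h4d was at 410, 260, 131, 432 and 283 CPM against 416, 419, 193, 567 and 576 CPM, lower in all 5 libraries, with a log2 fold change of -0.55 (adjusted p = 0.00555). Hist1h1c was at 431, 394, 271, 413 and 486 CPM against 403, 548, 348, 548 and 752 CPM, again lower in 4 libraries and higher in control 1 (-0.39, adjusted p = 0.00926). The other members with the smallest p-values were the H2B genes Hist1h2be (-0.54), Hist2h2bb (-0.51) and Hist1h2bn (-0.59) and the H4 genes Hist1h4h (-0.51) and Hist1h4f (-0.64). Hist1h1e fell by 0.39 (adjusted p = 0.0249). In all, 12 members were lower in all 5 libraries and 44 in at least 4, but the share of all genes with these patterns was not counted.

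Genes of division fell together with them. Both groups were gated on a Mki67 UMI, so Mki67 is not compared. Top2a, the topoisomerase of dividing chromosomes, fell by 0.67 and the replication clamp gene Pcna by 0.33, and 29 of 32 S-list and 22 of 26 mitosis-list genes were lower. Slbp fell by 0.37 (adjusted p = 0.00026), Asf1b by 0.46 and H2afx by 0.50, while H1f0, the linker variant known from resting cells, rose by 0.37. With thinned cells Asf1b was at 0.11 (adjusted p = 0.952), and of the others named here only Top2a passed. The share of mitosis-leading cells was 24.5%, 24.1%, 28.1%, 30.1% and 31.6% with Foxp3 and 25.2%, 32.5%, 26.1%, 34.3% and 43.1% without. It was lower with Foxp3 in 4 of 5 libraries and higher in knockout 1. Of the 8 macrophage markers 4 were higher in the Foxp3 cells, and their summed level was 694 to 1831 CPM there and 468 to 1308 CPM in the others. With only T cells that had no marker of another type, the mean ratio of the summed histone level was lower still, as given with the alternatives below. The part of the macrophage markers in the result was not tested.

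Within the mitosis-leading cells, the summed histone level was 12354, 9145, 3247, 7009 and 5929 CPM with Foxp3 and 12803, 11210, 7145, 11828 and 12508 CPM without, lower in all 5 libraries. The Foxp3 side held only 38 to 97 cells a library. Within the S-leading cells it was 2123, 1408, 1180, 2268 and 2714 CPM with Foxp3 and 1594, 2524, 821, 1958 and 3510 CPM without, higher in 3 libraries and lower in 2. The phase values were not tested.

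**Figure D4:**
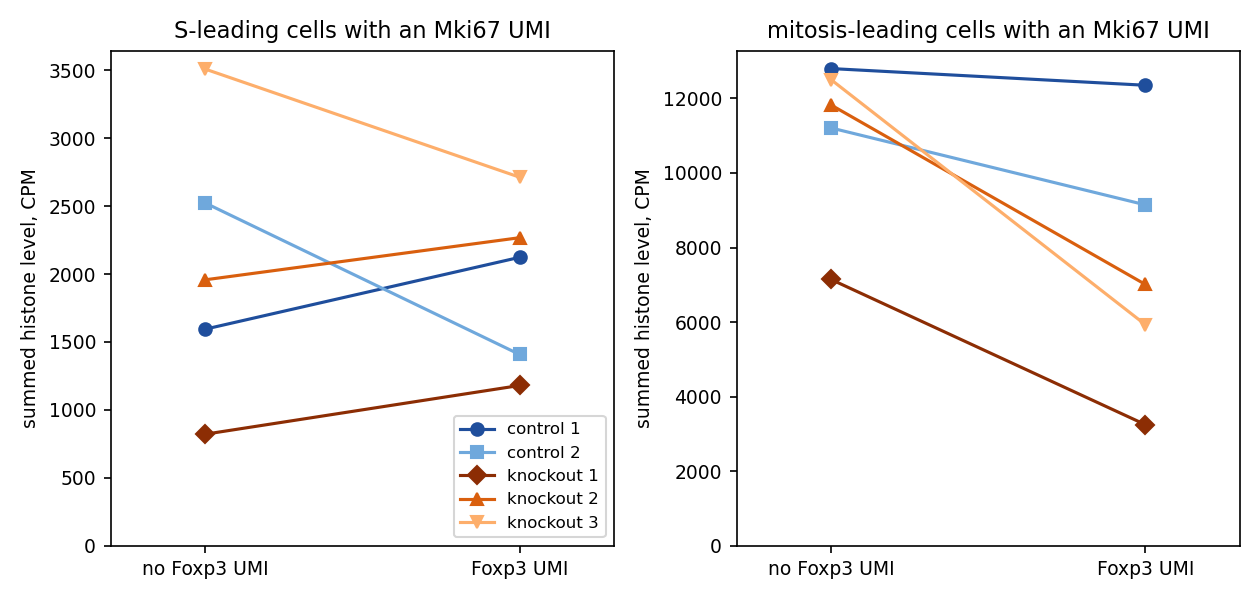
Summed level of the 67 histone genes in CPM in S-leading (left) and mitosis-leading (right) cells with a Mki67 UMI, without and with a Foxp3 UMI, 1 line for each library. The lines fall in all 5 libraries on the right and in 2 of 5 on the left.

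Outside the dividing gate 27 members could be tested between Foxp3 and Foxp3-negative cells. Hist1h1e was higher in Foxp3 cells, by 0.24 (adjusted p = 0.0204), and Hist1h4d lower, by -0.28 (adjusted p = 0.00393), where 17.9% of all genes passed, 10.3% as higher and 7.57% as lower. Hist1h1e stood at 233, 207, 161, 138 and 267 CPM with Foxp3 and 180, 157, 111, 129 and 264 CPM without, higher in all 5 libraries, but did not pass without control 1, control 2 or knockout 1. The summed level differed little, with ratios of 1.09, 1.16, 1.12, 0.977 and 0.953. The variants Cenpa (0.68) and H2afz (0.51) were higher in Foxp3 cells. With only T cells that had no marker of another type these values were 0.20 and -0.023, and neither passed. The summed B-cell markers were higher in Foxp3 cells in all 5 libraries, 1.31 to 2.19 times, and 2 of the 5 passed, Cd79b (0.73) and Ighm (0.80).

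No histone gene passed the test between the libraries labelled knockout and the controls in edgeR with all libraries and the filter on low counts. In Foxp3-negative cells with a Mki67 UMI none of 59 tested members passed, as did 0% of all 12726 genes. In Foxp3 cells with a Mki67 UMI it was none of 49 (0.00908% of all genes), in Foxp3-negative cells without Mki67 none of 46 (0.0076%), and in Foxp3 cells without Mki67 none of 15 (0%). At an unadjusted p under 0.05 there were 5, 9, 12 and 1 members, all lower in the libraries labelled knockout. That was 8.47%, 18.4%, 26.1% and 6.67% of the tested members, against 3.43%, 6.26%, 6.75% and 6.04% of all genes. DESeq2 called 0, 0, 1 and 0 members, where it called 0.204%, 0.384%, 0.809% and 0.226% of all genes. The median log2 fold changes of the tested members were -0.16, -0.52, -0.58 and -0.29. Data were simulated with the spread of the first of these comparisons over all genes tested. Of the genes changed 1.5-fold 30% were recovered, of those changed 2-fold 62% and of those changed 4-fold 96%. Recovery at the spread of the histone members themselves was not tested. In the first comparison of the measured libraries Hist1h2ap, at a log2 fold change of -3.12, did not pass (edgeR, adjusted p = 0.999984).

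The summed levels given above overlapped between the groups in all 4 gates. Knockout 1 was the lowest library in each. For single members, 3, 3, 13 and 2 tested members of the same 4 gates had no overlap of the groups, and all of them were lower in the libraries labelled knockout, against 5.02%, 7.25%, 7.98% and 7.15% of all genes tested. The 13 in Foxp3-negative cells without Mki67 were Hist2h4, Hist4h4, Hist3h2a, Hist1h2ai, Hist1h2bm, Hist1h4n, Hist1h2br, Hist1h2ae, Hist1h2ac, Hist1h2bc, Hist1h2bb, Hist1h2ab and Hist1h4a. The genotype difference of the Mki67 effect in Foxp3-negative cells passed for none of 59 members, where 0.348% of all genes passed. At an unadjusted p under 0.05 it was 12 members, 20.3% of the 59 and all with a larger Mki67 effect in the libraries labelled knockout, against 9.68% of all genes. DESeq2 called 0 of 22 members, against 0.54% of all genes.

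With no filter on low counts edgeR called 8, 19, 13 and 4 members, all lower in the libraries labelled knockout, where 0.478%, 0.901%, 1.56% and 0.835% of all genes were lower. With control 1 left out as well, a setting chosen after the data were seen, it called 0, 0, 0 and 1 members, where 0.0101%, 0.297%, 0.198% and 0.52% of all genes were lower. The largest differences were those of Hist1h2ap and Hist1h2ae, both highest in control 1. Hist1h2ap, an H2A gene that shares 93.1% of its 50-base stretches with other members, Hist1h2ao above all, was at 188 and 11.9 CPM in the controls and 5.60, 21.5 and 7.90 CPM in the others among dividing Foxp3-negative cells. Its log2 fold change of -3.12 became -0.03 without control 1, and in dividing Foxp3 cells -3.54 (adjusted p = 0.587) became 0.64. In the same Foxp3 cells it was -4.39 without control 2 (adjusted p = 0.0107) and -4.50 without knockout 2. Hist1h2ae was at 238 and 73.3 CPM in the controls against 27.2, 87.6 and 60.3 CPM, a log2 fold change of -1.45 that ranged from -2.06 to -0.35 as single libraries were left out.

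Among dividing cells control 1 differed from all other libraries in its mix of histone messages. In dividing Foxp3-negative cells H2A genes made up 21.2% of its histone UMIs and 8.98% to 11.1% of those in the other 4 libraries, and H1 genes 41.5% against at least 50.3%. In dividing Foxp3 cells the H2A share was 21.3% against 8.59% to 11.4%. Without Mki67 the difference was smaller. The H2A share of control 1 was 8.56% against 6.19% to 7.23% in Foxp3-negative cells. With Foxp3 it was 8.70% against 5.40% to 6.73%. The H1 share of control 1 without Mki67 was 55.2% against at least 55.6% in Foxp3-negative cells. In Foxp3 cells it was 61.1%, within the range of the others. In dividing Foxp3-negative cells its H2B share (10.8%) and H3 share (11.8%) lay within the range of the others. Control 1 was more than double the highest other library for 9 of 59 tested members: Hist1h2ap (8.73 times), Hist1h2br, Hist1h4m, Hist1h2ai, Hist1h2ae, Hist1h2bp, Hist2h3b, Hist1h4n and Hist1h3f. The same count over all genes tested was not made. Control 1 was the highest library for 24 of the 59, and 17.2% of all genes tested had their highest level in it. Knockout 3 was the highest for 29 of the 59, against 23.2% of all genes.

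By annotated end, the median ratio of control 1 to the median of the other libraries in dividing Foxp3-negative cells was 1.86 for members with at most 100 bases after the stem-loop, 1.05 for those without the motif and 0.979 for those with more than 100 bases. In dividing Foxp3 cells the 3 ratios were 2.95, 1.72 and 1.52, and in Foxp3-negative cells without Mki67 they were 1.74, 1.05 and 1.29. Members more than double the highest other library were spread over the ends. In dividing Foxp3-negative cells they were 4 of 20, 3 of 20 and 2 of 19 in the same order, again without a count over all genes. Hist1h2ap, for which 3 annotated bases follow the stem-loop at chr13:21833029-21833044 on the minus strand, was at 188 CPM against 5.60 to 21.5 CPM, while Hist1h1c, for which 840 bases follow, was at 403 CPM against 348 to 752 CPM. Knockout 1 stood at the other side: it was the lowest library for 55 of the 59 members, against 16.9% of all genes tested. The depth of control 1 moves with this pattern, and its part in it was not tested.

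**Figure D5:**
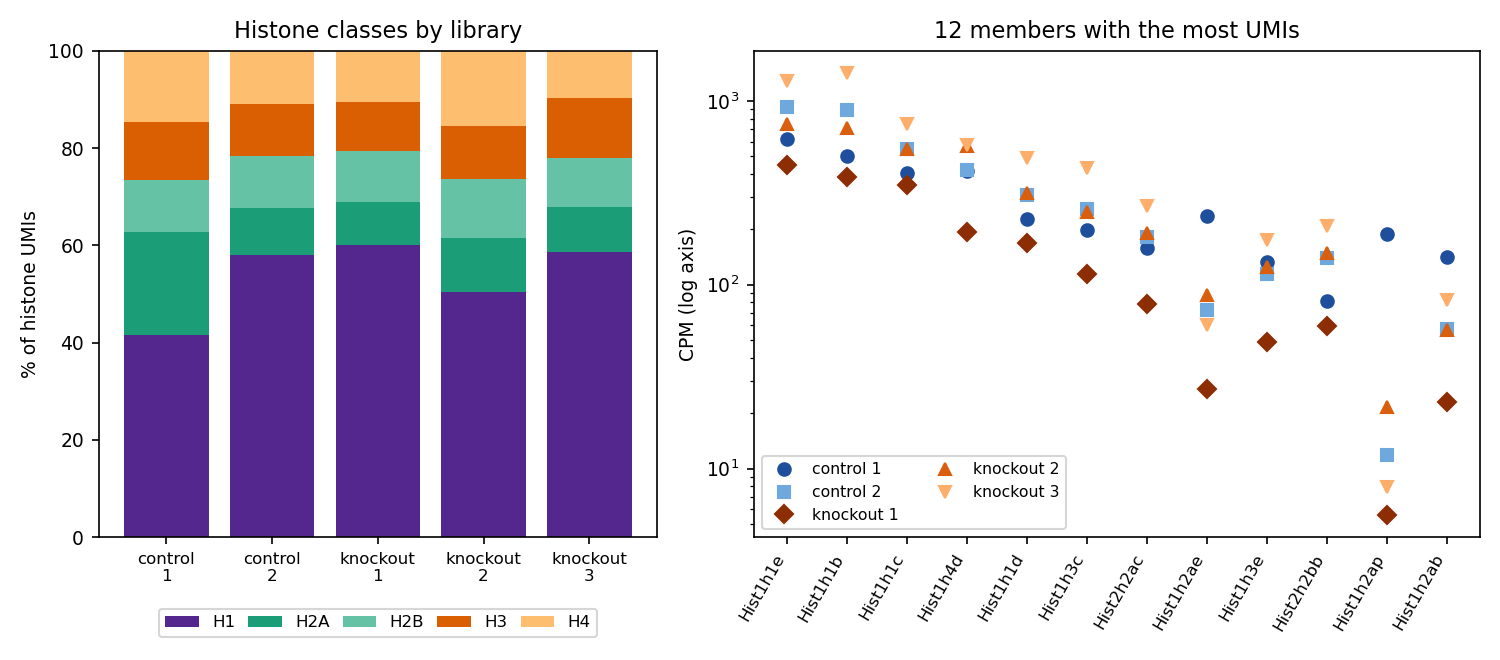
Share of histone UMIs by class in each library (left, in percent) and CPM (right, log axis) of the 12 members with the most UMIs, in Foxp3-negative Cd4 cells with a Mki67 UMI. H2A takes 21.2% in control 1 and at most 11.1% in the other libraries, and Hist1h2ap is at 188 in control 1 and at most 21.5 elsewhere.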

How the data were processed

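Single-cell 3′ RNA libraries of 5 samples were analysed as 2 control and 3 knockout libraries, as the labels give them. Per the file headers, the authors ran Cell Ranger 8.0.0, and the deposited values are its raw UMI counts for each gene and barcode. The processing notes of the submitters also name mm10 and Seurat 5.1.0. All 31053 genes entered the filter on low counts, and the 10160 to 13514 genes that passed it in a comparison were fitted. Cells with under 500 genes or at least 10% mitochondrial UMIs were left out.

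UMI counts were summed per library and gate, and edgeR 4.0.16 in R 4.3.3 gave quasi-likelihood tests (TMM factors, filterByExpr, Benjamini-Hochberg over all genes tested, threshold 0.05). The library was a term where both gates came from it. DESeq2 1.42.0, other cell filters, no count filter, thinning to 2000 UMIs and single libraries left out were alternatives, 11 comparisons in all. The tests were tested on simulated data. The filter was also run on the gate of lower level alone, a check added after the data were seen. S-leading and mitosis-leading cells had at least 3 UMIs of the 2 lists together.

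The members, gene lists and tests were chosen with earlier results of these data known. Named are the 12 members with the most UMIs, up to 8 per direction and comparison with the smallest p, genes known for polyadenylated messages or from testis, and up to 4 genes per direction of other lists. Hist1h2af, Hist3h2a, Hist1h1a and Hist1h3a, the members of divergent pairs, those set apart in control 1 and those whose groups do not overlap were named after their values were seen. Gene positions and transcripts were those of GENCODE M21, matched by identifier for all 67 members. Hist1h1e and Hist1h2be overlap on the same strand, and Hist1h2ap and Hist1h2ao, Hist1h2br and Hist1h2bq, Hist1h4m and Hist1h4n, and Hist2h2aa1 and Hist2h2aa2 are near-identical, so their counts are uncertain. Hist1h3e shares 73.4% of its 50-base stretches with other members, Hist1h3f above all. Scripts ran in Python 3.11.15 with pandas 2.3.3, numpy 2.4.6 and matplotlib 3.10.9.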

Additional observations from a re-analysis of the deposited data

How the results depend on the processing

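Of 215 alternative values of the counts of called members and the summed ratios, 180 stayed within 1.5 times the count or 1 SD of the ratio, and none turned its direction. A count of 0 that stayed at 0 is among the 180, and a comparison without a called member could not turn its direction. With cells thinned before gating, and so fewer members tested, the calls with a Mki67 UMI were 32 in Foxp3-negative and 6 in Foxp3 cells, 24 for mitosis-leading cells (mean log2 ratio of the sums 1.75 instead of 2.43), and 0 for Foxp3 against Foxp3-negative cells with or without Mki67. Without the filter on low counts they were 52 for Mki67 in Foxp3 cells, 3 for its difference between Foxp3 and Foxp3-negative cells, 31 for Foxp3 in dividing cells, 7 for the genotype difference of the Mki67 effect, and 8, 19, 13 and 4 for genotype in the 4 gates in the order of the report (0, 0, 0 and 1 with control 1 left out as well). DESeq2 called 2 members for the difference of the Mki67 effect and 1 for genotype in Foxp3-negative cells without Mki67.

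With only T cells that had no marker of another type, 3 members were called for Mki67 in Foxp3 cells and 0 for Foxp3 in cells without Mki67, and the mean log2 ratios were 3.37 (Mki67, Foxp3-negative; 2.86 with all cells), -1.04 (Foxp3, dividing; -0.42) and 2.92 (mitosis-leading). With the deepest 5% of cells left out, 20 members were called for Mki67 in Foxp3 cells (mean log2 ratio 1.90 instead of 2.36) and 26 for Foxp3 in dividing cells. With cells of exactly 1 Mki67 UMI left out, 31 were called for Foxp3 in dividing cells, and the Mki67 ratio in Foxp3-negative cells was 3.27. The cause of these changes was not tested.

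With 1 library left out in turn, the calls ranged from 55 to 57 (Mki67, Foxp3-negative), 31 to 38 (Mki67, Foxp3), 0 to 1 (their difference), 8 to 34 (Foxp3, dividing), 1 to 2 (Foxp3, other), 0 to 0, 0 to 1, 0 to 0 and 0 to 0 (genotype in the 4 gates), 0 to 1 (genotype difference of the Mki67 effect) and 56 to 57 (mitosis-leading). Mean log2 ratios ranged from 2.81 to 2.94, 2.27 to 2.44, -0.56 to -0.29 and 2.31 to 2.59. Where 1 control was left, it was assumed to vary like the knockout libraries.

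The replicate numbers only name the libraries, and no label pairs them. With the replicate number as a block, 0 members were called for genotype in each of the 4 gates. Without the library as a term, 53 and 30 members rose with Mki67 in Foxp3-negative and Foxp3 cells.

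Single genes that turned their direction were Hist1h2ap (genotype, dividing Foxp3 cells) without control 1, at 0.64 (-4.50 without knockout 2), or 0.65 with no filter either, Slbp (mitosis-leading) with thinned cells at -0.52, Hist3h2a (mitosis-leading) with the deepest cells left out at -0.091, Asf1b (Foxp3, dividing) with thinned cells at 0.11 and H2afz (Foxp3, no Mki67) with the stricter T cells at -0.023. Depth limits the low members: 2 had no UMI, and 9 could not be tested between Mki67 gates.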
